A study of Rattus norvegicus with 13 samples.

Results

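The miR-15/16 family with miR-322 and miR-497 was followed in fat of female rats as 6 mature miRNAs: rno-miR-15b, rno-miR-16, rno-miR-195, rno-miR-497, rno-miR-322 and rno-miR-322*, written below without the prefix for rat. The members were picked by their systematic names on the array and not by their measured values, though earlier results of these data were known. They were 6 of the 677 rat miRNAs on the array and 6 of the 176 detected on at least 6 of the 13 arrays. The animals were Sprague Dawley rats, and each array held fat RNA of 1 numbered daughter. In the Control group (n = 7) the father ate standard chow with 9% fat, and in the HFD group (n = 6) he ate high-fat pellets with 43% fat. Mating took place when the fathers were 15 weeks old, with chow-fed mothers in both groups. The daughters went onto chow at weaning, at 3 weeks, and their fat was taken at 14 weeks. The daughters themselves ate no high-fat diet. The fat depot, the litter and the father of each daughter are not named in the labels, so a p-value here measures the spread between these samples, some of which may be sisters. The questions were whether a father's diet went with a different level of any member, and which loci of the family varied together from daughter to daughter.

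A miRNA is cut from a hairpin transcript and guides the silencing complex to messenger RNAs that pair with its seed, the bases after the first one at its 5′ end. miRNAs of the miR-15/16 family share a seed and are known for lowering cyclins and other cell cycle proteins and BCL2, an inhibitor of cell death. In rodents they come from several loci. Among these are miR-15b with miR-16 inside the gene Smc4 and miR-195 with miR-497 in a short cluster. miR-322, the rodent counterpart of human miR-424, lies in a cluster on the X chromosome with miR-503, miR-542 and miR-450a. The star in miR-322* marks the strand from the other arm of the miR-322 hairpin, which has a seed of its own.

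The mature sequences show which members can be read as one seed family and which cannot. They are RefSeq sequences on the assembly GRCr8, written 5′ to 3′, and all 6 members were matched by name. The capitals mark the seed, bases 2 to 8. miR-103 and miR-107 are shown because they hold the same AGCAGCA letters 1 base earlier, and miR-503 because its seed differs from that of the family in its last letter.
miR-15b: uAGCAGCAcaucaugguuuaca
miR-16: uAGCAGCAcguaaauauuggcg
miR-195: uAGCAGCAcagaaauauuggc
miR-497: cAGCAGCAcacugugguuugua
miR-322: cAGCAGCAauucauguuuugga
miR-322*: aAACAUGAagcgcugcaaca
miR-503: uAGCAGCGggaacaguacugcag
miR-103: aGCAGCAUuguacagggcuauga
miR-107: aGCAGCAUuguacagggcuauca
The first 5 share the seed AGCAGCA, which 5 of 693 mature rat miRNA names in the table carried (0.722%). miR-322* has the seed AACAUGA. Beyond the seed the members differ. Counted over the whole mature sequence, seed included, miR-195 matches miR-16 at 19 of its 21 positions. By the same count miR-15b matches miR-16 at 14 and miR-195 matches miR-497 at 12.

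The loci are as follows on GRCr8. The mature miR-15b lies at chr2:155555197-155555218 and miR-16 at chr2:155555343-155555364, both on the plus strand with 124 bases between them. miR-497 lies at chr10:55450172-55450193 and miR-195 at chr10:55450509-55450529 on the plus strand, with 255 bases between the ends of their hairpins. miR-322 lies at chrX:137726198-137726219 and miR-322* at chrX:137726162-137726181, on the minus strand. The hairpins of miR-503, miR-542 and the first miR-450a copy lie 220, 3892 and 5123 bases from that of miR-322. The miR-322 hairpin, at chrX:137726147-137726241 on the minus strand, is printed because the data compare its arms, which are in capitals, miR-322 first and miR-322* after it.
Mir322: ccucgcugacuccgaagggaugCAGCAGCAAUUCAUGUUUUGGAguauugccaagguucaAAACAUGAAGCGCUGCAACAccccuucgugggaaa

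A level is the log2 of the processed intensity after division by the array's own 75th percentile, so 0 is the brightness of a fairly bright probe on that array. The level is the mean over a miRNA's probes, and levels of different miRNAs are not compared with each other because probes differ in brightness. The 13 arrays detected 155 to 196 miRNAs each, 19.98% to 25.08% of spots were well above background, and no spot was saturated. All 6 miRNAs of a list taken as enriched in adipocytes (miR-378, miR-193, miR-365, miR-143, miR-145 and miR-335) were detected on all 13 arrays. Their detection does not measure the share of adipocytes. A list of muscle miRNAs had levels averaging -4.93 to 0.46 over Control arrays and -5.06 to 0.50 over HFD arrays. Control 662, Control 664 and HFD 629 stood apart, with miR-1 at 2.50, 1.94 and 2.74 against at most -1.28 on the other 10 arrays. These 3 arrays were picked after their values were seen. In whole tissue, fewer cells of a type and less of a miRNA per cell cannot be told apart.

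All 6 members were detected on all 13 arrays, and the spread between daughters was small. The mean spot intensity was 3232 to 6058 for miR-16, 2340 to 3293 for miR-195, 1748 to 2634 for miR-497, 885.4 to 1361 for miR-322 and 595.8 to 1149 for miR-15b. Every spot of these 5 members was well above background on every array. miR-322* was dim, at 50.48 to 90.95, and 1 of its 2 probes was at the lowest level assigned on all 13 arrays. The highest and lowest arrays differed 1.75-fold for miR-497, 1.69-fold for miR-195, 1.56-fold for miR-15b, 1.49-fold for miR-322, 1.24-fold for miR-16 and 1.21-fold for miR-322*. miR-16 was thus among the steadier miRNAs on these arrays: its SD within groups stood at percentile 15.9 of the 176 tested, against 80.1 for miR-195 and 81.3 for miR-497. The averaging with a probe at the lowest level shrinks the spread of miR-322*.

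**Figure D1:**
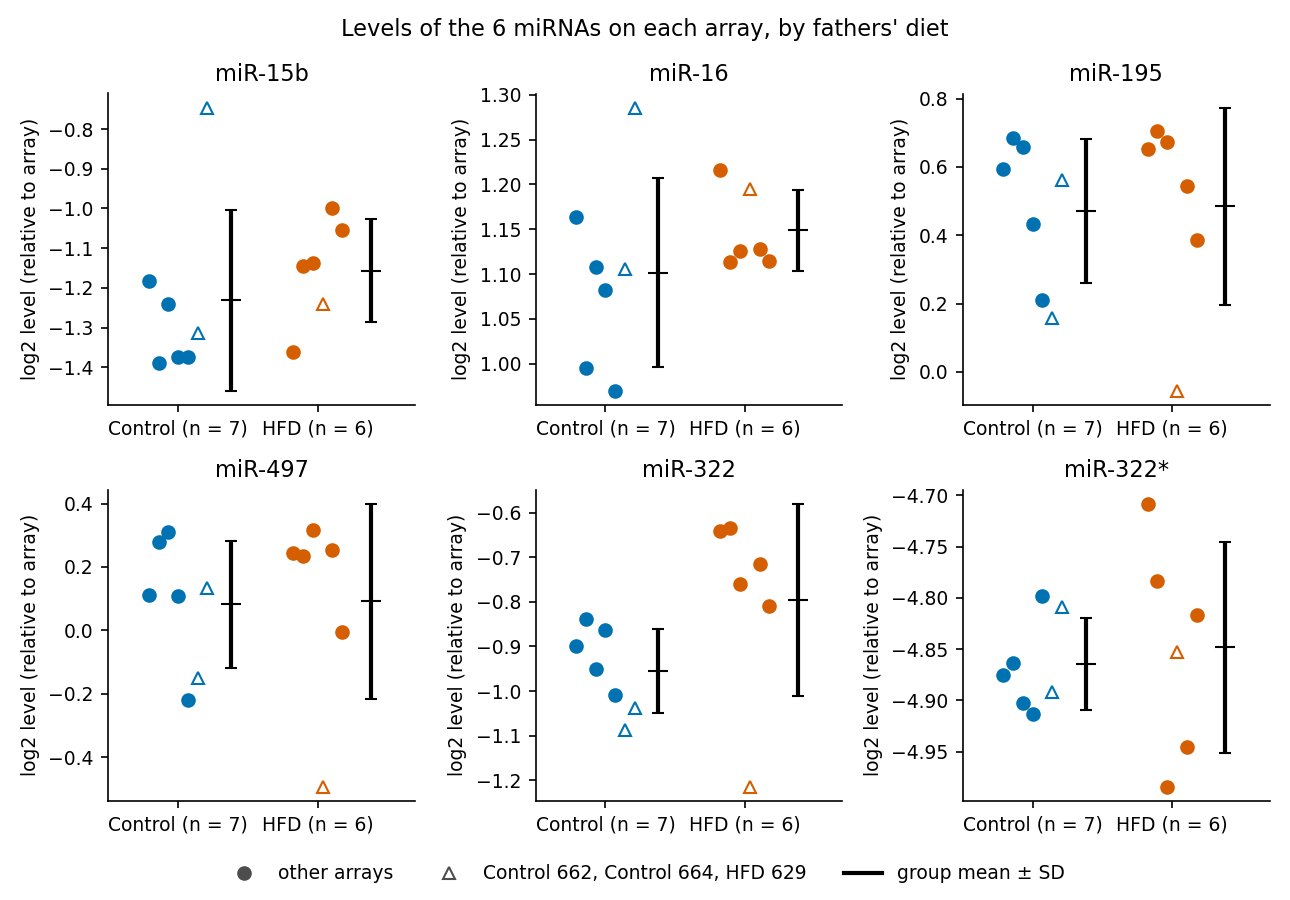
Levels of the 6 members on each array (y axis, log2 of the intensity relative to the array's 75th percentile), with 7 Control arrays in blue, 6 HFD arrays in orange and the mean ± SD of each group in black; open triangles mark Control 662, Control 664 and HFD 629. The groups overlap for every member, and HFD 629 lies at -1.21 for miR-322, below all other arrays.

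None of the 6 members differed between daughters of HFD and Control fathers (limma, Benjamini-Hochberg adjusted p under 0.05). Over all 176 tested miRNAs the share called was 0.0%, and 2 had an unadjusted p under 0.05 (1.14%). All 6 members had a higher HFD than Control mean, with a median log2 difference of 0.032. Over all 176, 91 were higher (51.7%) with a median of 0.0028. Without Control 662, Control 664 and HFD 629 the differences were 0.17 for miR-15b, 0.076 for miR-16, 0.077 for miR-195, 0.092 for miR-497, 0.20 for miR-322 and 0.023 for miR-322*, and 0 passed (limma, lowest adjusted p = 0.391). The member differences ran from 0.011 to 0.16 on the log2 scale. The signs of miR-195, miR-497 and miR-322* depended on the scaling or background correction. Of the members, 4 of 6 were higher with the percentile taken over all probes, 5 of 6 with normexp background correction and 3 of 6 with the total gene signal. In each of these settings miR-15b, miR-16 and miR-322 stayed higher in HFD.

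miR-195 and miR-497, from the chromosome 10 cluster, had nearly the same values in both groups. miR-195 ran from 0.16 (Control 662) through a median of 0.56 to 0.68 (Control 627) in Control, and from -0.055 (HFD 629) through 0.60 to 0.71 (HFD 620) in HFD. The groups overlapped, and the lowest value of all was that of HFD 629. The difference was 0.014 ± 0.13 (SE, limma, n = 7 and 6; adjusted p = 0.998), a fold of 1.01 with a 95% interval of 0.829 to 1.23. miR-497 ran from -0.22 (Control 658) through 0.11 to 0.31 (Control 631) in Control, and from -0.49 (HFD 629) through 0.24 to 0.32 (HFD 624) in HFD. Again the groups overlapped and HFD 629 was the lowest array. The difference was 0.011 ± 0.13 (limma, adjusted p = 0.999), a fold of 1.01 with a 95% interval of 0.824 to 1.23. Of the 6 HFD arrays, 4 stood above the Control mean for each of these miRNAs.

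miR-15b and miR-16, which share the locus inside Smc4, also overlapped between groups. miR-15b ran from -1.39 (Control 627) through -1.31 to -0.75 (Control 664) in Control, and from -1.36 (HFD 619) through -1.14 to -0.9985 (HFD 660) in HFD. Control 664 stood above every other array, and the remaining 6 Control arrays were at or below -1.18. The difference was 0.075 ± 0.10 (SE, limma; adjusted p = 0.976), a fold of 1.05 with a 95% interval of 0.905 to 1.23, and without Control 664 it was 0.16 ± 0.064 (limma, adjusted p = 0.947). miR-16 ran from 0.97 (Control 658) through 1.11 to 1.29 (Control 664) in Control, and from 1.11 (HFD 620) through 1.13 to 1.22 (HFD 619) in HFD. All 6 HFD arrays were above the Control mean of 1.10, yet within the Control range. The difference was 0.047 ± 0.050 (limma, adjusted p = 0.965), a fold of 1.03 with a 95% interval of 0.959 to 1.11. miRNAs abundant in red cells were measured beside this locus: miR-451, miR-144 and miR-144* had HFD minus Control differences of 0.55, 0.59 and 0.42, none past the test. The correlation with miR-451 over the 13 arrays was r = 0.53 for miR-15b (permutation test, adjusted p = 0.352) and r = 0.36 for miR-16 (adjusted p = 0.594), and the part of red cells in these levels was not tested.

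miR-322, the arm with the family seed, had the lowest p of the members. In Control it ran from -1.09 (Control 662) through -0.95 to -0.84 (Control 627), and in HFD from -1.21 (HFD 629) through -0.74 to -0.63 (HFD 620). On HFD 629 it was lower than on any other array, while the other 5 HFD arrays, at -0.81 and above, lay above every Control array. The difference was 0.16 ± 0.087 (SE, limma, n = 7 and 6; unadjusted p = 0.0896, adjusted p = 0.965), a fold of 1.12 with a 95% interval of 0.980 to 1.27. It ranked 9 by p among the 176 miRNAs, and 5 of 6 HFD arrays were above the Control mean. Its 2 probes gave 0.15 and 0.17. HFD 629 also had the highest 75th percentile of all arrays, 2540, with HFD 660 next at 2167. Before division by it, the mean miR-322 intensity on HFD 629 was 1125, within the range of 885.4 to 1361 over all arrays. The part of array brightness in the low level on HFD 629 was not tested.

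The difference in miR-322 changed with the arrays left out and with the slide. Without HFD 629 the difference was 0.24 ± 0.054 (limma, unadjusted p = 0.000742, adjusted p = 0.131), and miR-322 was then the 1 miRNA of 176 whose groups did not overlap (0.568%). HFD 629 held the lowest miR-322 level, so leaving it out removes the overlap by the choice of array. The p and the lack of overlap after that choice are therefore no separate evidence of a difference. Control 662, Control 664 and HFD 629, the arrays with the most miR-1, held the 3 lowest miR-322 levels, at -1.09, -1.04 and -1.21. Without all 3 the difference was 0.20 ± 0.048 (limma, adjusted p = 0.391), and the groups of 2 of 176 miRNAs did not overlap (1.14%), miR-322 among them. For miR-195, 2 of these 3 arrays were below all others, for miR-497 1 of 3, and for miR-15b, miR-16 and miR-322* 0 of 3. The part of muscle RNA in these levels was not tested.

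**Figure D2:**
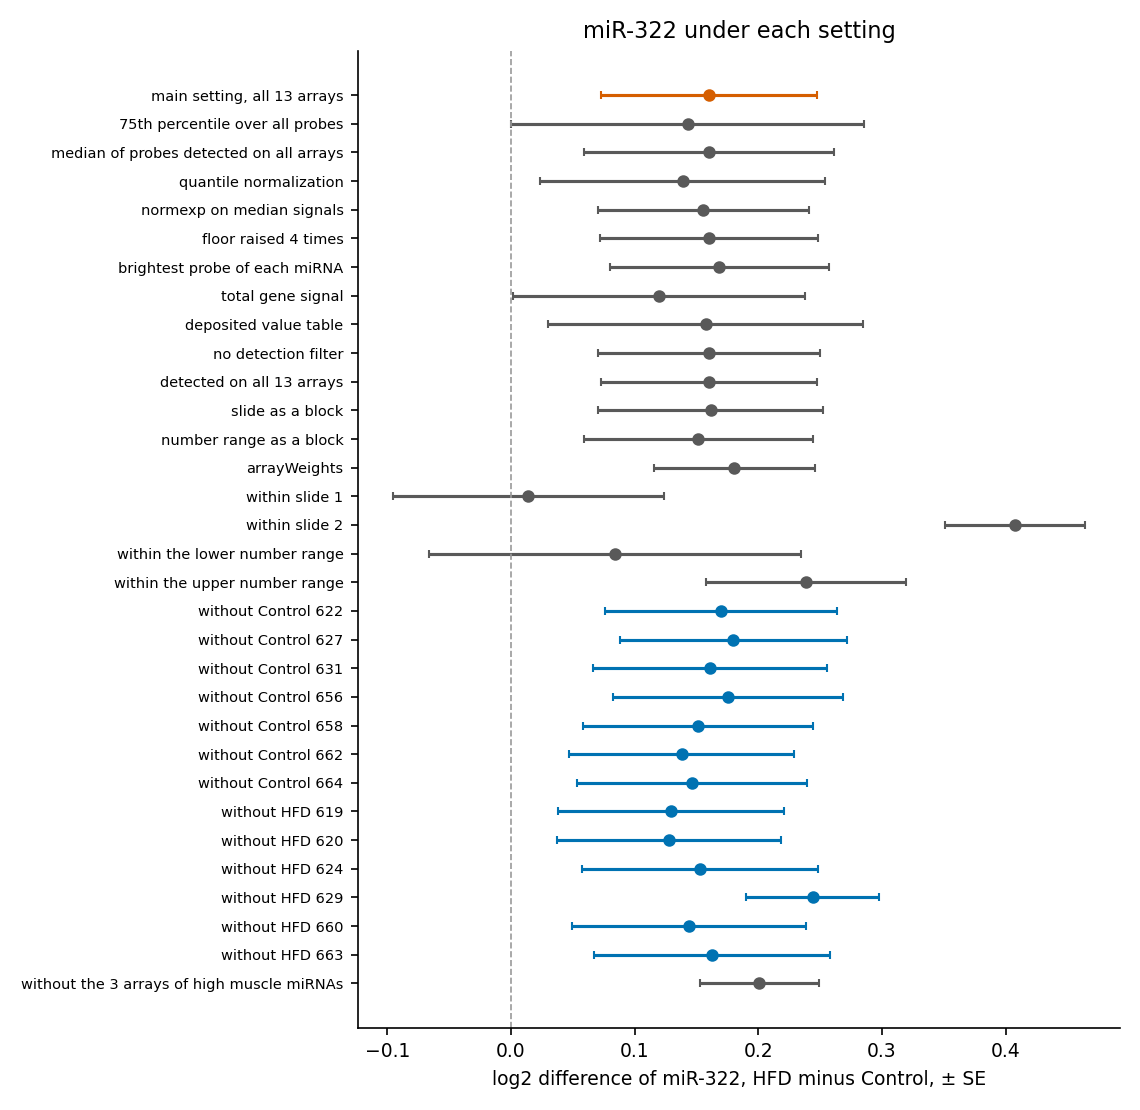
Log2 difference of miR-322 between HFD and Control (x axis; points with ± SE) under each way of processing the arrays and with arrays left out (y axis). The value as reported is 0.16, the value within slide 1 is 0.014 and the value within slide 2 is 0.41.

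The arrays came from 2 slides that each held both groups. On slide 2 all 3 Control arrays carried higher animal numbers (658, 662, 664) than both HFD arrays (619, 620), so group and number range cannot be told apart there. Within slide 1 (4 Control and 4 HFD arrays, HFD 629 among them) miR-322 differed by 0.014, and within slide 2 (3 Control arrays, Control 662 and Control 664 among them, and 2 HFD arrays) by 0.41, where the limma adjusted p was 0.104. The difference between the slides was 0.39 ± 0.15 (SE, limma interaction term, adjusted p = 0.226). miR-195 had -0.20 on slide 1 and 0.37 on slide 2 (interaction 0.57 ± 0.24, adjusted p = 0.226), and miR-497 had -0.18 and 0.32 (interaction 0.50 ± 0.26, adjusted p = 0.339). miR-15b went the other way, with 0.19 on slide 1 and -0.11 on slide 2 (interaction -0.30 ± 0.21, adjusted p = 0.463). miR-16 gave 0.054 and 0.044, and miR-322* gave -0.011 and 0.087. None of the 6 interaction terms passed, against 0.568% of all 176.

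miR-322*, from the other arm of the same hairpin, was nearly flat. It ran from -4.91 (Control 656) through -4.88 to -4.80 (Control 658) in Control, and from -4.98 (HFD 624) through -4.83 to -4.71 (HFD 619) in HFD. The groups overlapped, and the HFD arrays held both the lowest and the highest value. The difference was 0.016 ± 0.047 (SE, limma; adjusted p = 0.983), a fold of 1.01 with a 95% interval of 0.943 to 1.09. Its other probe was at the lowest level assigned on all 13 arrays, and averaging with it shrinks both this difference and its interval. The brighter probe alone gave 0.033 ± 0.086.

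**Figure D3:**
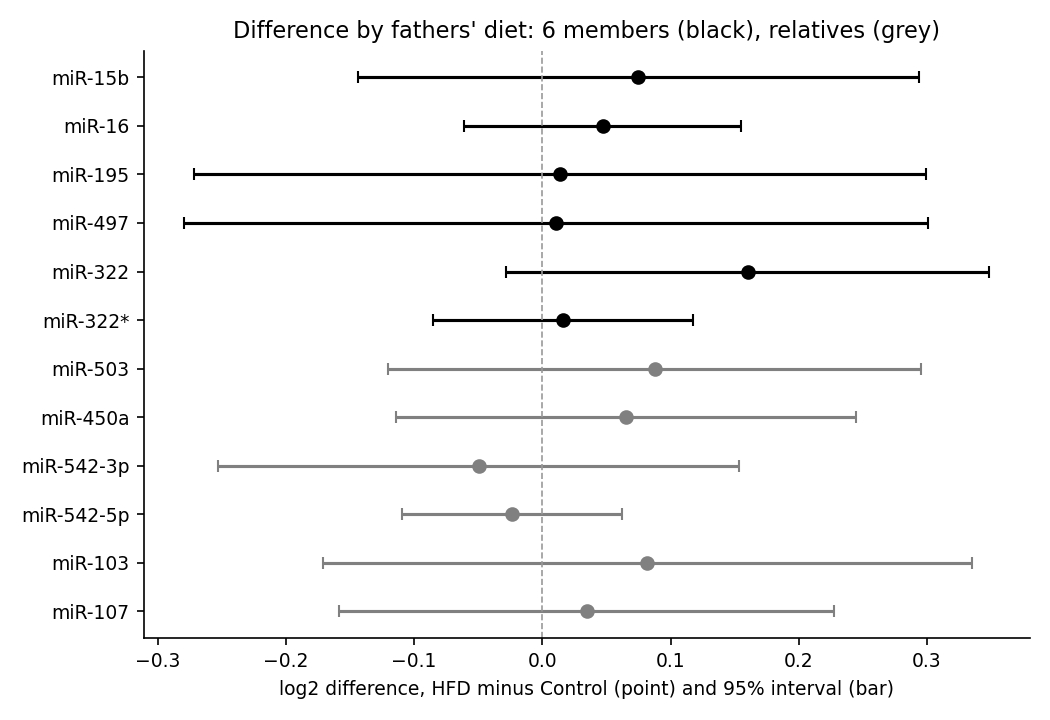
Log2 difference between HFD and Control (x axis) with its 95% interval for the 6 members in black and for related miRNAs in grey. Every member's interval includes 0, and the farthest point is that of miR-322 at 0.16.

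The second question was which loci varied together across the 13 arrays. miR-195 and miR-497, neighbours on chromosome 10, varied almost as one: r = 0.97 (permutation test with 100000 resamples, p = 1e-05, the smallest these can give; adjusted over all 15400 pairs of tested miRNAs, p = 0.00467). Spearman's rho was 0.85 (permutation p = 0.00053, adjusted p = 0.0704). This was 1 of the 15 pairs of members, and the 1 that passed on Pearson's r, against 1.12% of all 15400 pairs. The relation did not rest on the extreme arrays: without Control 662 and HFD 629 r was 0.93. It was 0.95 within Control, 0.98 within HFD and 0.97 within slide 1, while no r was computed for slide 2, whose 5 arrays are fewer than the 6 taken as the least for a correlation. The log2 ratio of miR-195 to miR-497 had an SD of 0.061 over the arrays, against 0.24 for miR-195 itself. Without the 3 arrays of high miR-1, r was 0.93 and no longer passed at that number of arrays (permutation test, adjusted p = 0.124).

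The pair miR-15b and miR-16, whose mature sequences lie 124 bases apart, was looser. A probe reads a mature sequence and not its locus, so any miR-16 from another locus would be counted with it. Over the 13 arrays r was 0.62 (permutation p = 0.0249, adjusted p = 0.257) and rho was 0.61 (p = 0.0312, adjusted p = 0.316). Within Control r was 0.90, within HFD it was -0.86, and within slide 1, which does not hold Control 664, it was 0.51. Without Control 664 and HFD 660, the arrays farthest from the median of miR-15b, r was 0.38. Without Control 664 alone, the highest array for both miRNAs, it was 0.36, and without the 3 arrays of high miR-1 it was 0.40.

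The arms of the miR-322 hairpin were not detectably correlated: r was 0.12 (permutation p = 0.687, adjusted p = 0.884) and rho was 0.071 (p = 0.819, adjusted p = 0.951). Without HFD 620 and HFD 629 r was 0.029, and without the 3 arrays of high miR-1 it was 0.24. The value moved with the scaling, to 0.60 with the percentile over all probes, 0.41 with normexp correction, 0.40 with quantile normalization and -0.065 with the total gene signal (lowest adjusted p = 0.129, permutation test). The dimness of miR-322* limits this value. For miR-322 with miR-195 r was 0.76 (permutation p = 0.002, adjusted p = 0.0939; rho 0.65, adjusted p = 0.262), and with miR-497 r was 0.76 (permutation p = 0.00174, adjusted p = 0.0904; rho 0.58, adjusted p = 0.341). Neither passed, and whether these r differ from that of the arms was not tested. Leaving out the 2 farthest arrays gave 0.47 with miR-195 and 0.56 with miR-497, and leaving out the 3 arrays of high miR-1 gave 0.55 and 0.54 (adjusted p = 0.488 and 0.505). Within HFD the values were 0.96 and 0.95, and within Control 0.64 and 0.63. HFD 629 was the lowest HFD array for miR-195, miR-497 and miR-322, and no r was computed for HFD without it. Over all other arrays, both groups together, r was 0.63 with miR-195 and 0.62 with miR-497. Whether r differs between the groups was not tested.

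The calls of miR-322 with the chromosome 10 pair changed with the scaling. How many of all tested pairs passed under these settings was not counted, so the calls are not results about these miRNAs alone. With normexp correction r was 0.769 with miR-195 and 0.775 with miR-497, against 0.764 and 0.762 as reported. With miR-195, miR-322 passed under quantile normalization (permutation test, adjusted p = 0.0325), normexp correction (0.0202), total gene signal (0.0231) and the deposited value table (0.00825). With miR-497, miR-322 passed under the same 4 settings, with adjusted p of 0.0224, 0.0178, 0.0216 and 0.00879. With the percentile taken over all probes, both passed too (0.00316 and 0.00352), as did miR-16 with miR-195, miR-497 and miR-322 (r of 0.79, 0.76 and 0.72). The levels were also correlated with the brightness of the array, and among the members only miR-195 passed. How many of all 176 miRNAs passed was not counted, so this call does not set miR-195 apart. A level holds its own divisor, which pulls such an r toward negative values, and the permutation test does not allow for this. The level of miR-195 correlated with the log2 of the 75th percentile by which it was divided at r = -0.77 (permutation p = 0.00164, adjusted over 176 miRNAs p = 0.0366), with rho = -0.79 (adjusted p = 0.044) and r = -0.61 without the 2 farthest arrays. For miR-497 and miR-322 r was -0.67 and -0.64 (adjusted p = 0.131 and 0.175), whereas it was 0.10 for miR-15b and 0.17 for miR-16. The part of array brightness in the shared variation was not tested. A ratio within an array, such as that of miR-195 to miR-497, contains no scaling.

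**Figure D4:**
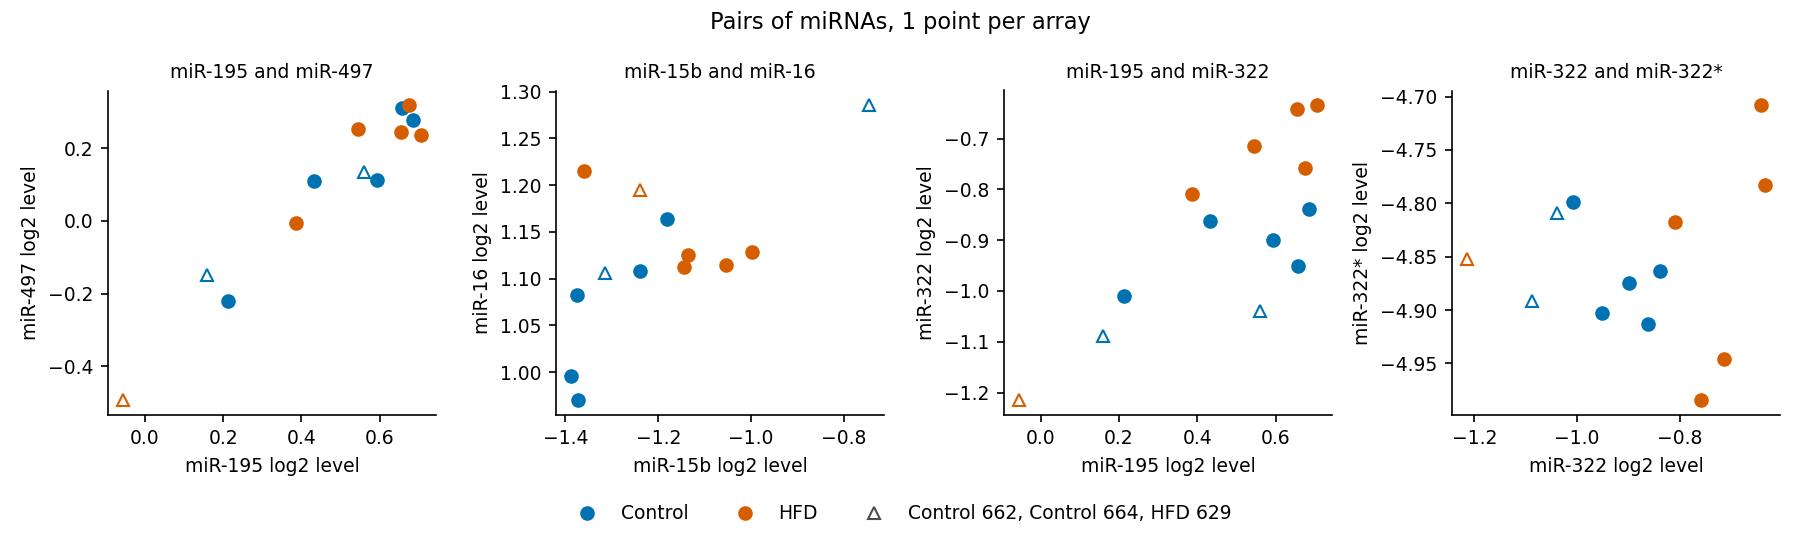
Levels of members on each array plotted against each other, both axes in log2 of the intensity relative to the array's 75th percentile, with Control in blue, HFD in orange and the 3 arrays of high miR-1 as open triangles. miR-195 and miR-497 lie along a line (r = 0.97), while miR-322 and miR-322* do not (r = 0.12).

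Members with the same seed differed in how closely they varied together. Among all 15 pairs of members, those with miR-322* and its other seed included, 11 had a positive r and the median was 0.12. Over all pairs of tested miRNAs 52.7% were positive and the median was 0.029. miR-16 and miR-195, the members closest in sequence, had an r of 0.06 (permutation p = 0.846, adjusted p = 0.951). The other pairs across loci that have not been named, again with miR-322* included, lay between -0.17 and 0.20.

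miR-103 and miR-107, which sit in introns of pantothenate kinase genes and hold the family letters 1 base earlier, were compared as the nearest seed neighbours. miR-195 had r = 0.86 with miR-103 (permutation p = 7e-05, adjusted p = 0.0163; rho 0.87, adjusted p = 0.047; 0.86 without the 2 farthest arrays). miR-497 had r = 0.85 with miR-103 (permutation p = 4e-05, adjusted p = 0.0118; rho 0.80, adjusted p = 0.110; 0.81 without the 2 farthest arrays). With miR-107 the values were 0.78 for miR-195 (adjusted p = 0.0804) and 0.77 for miR-497 (adjusted p = 0.0923). For miR-322 they were 0.68 with miR-103 and 0.55 with miR-107 (adjusted p = 0.179 and 0.328). Without the 3 arrays of high miR-1, r with miR-103 was 0.86 for miR-195, 0.85 for miR-497 and 0.55 for miR-322. Between HFD and Control, miR-103 differed by 0.082 ± 0.12 and miR-107 by 0.034 ± 0.089 (SE, limma), and 0 of these 2 passed.

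miRNAs of the same loci were taken from a list of 13, of which 10 were on the array under those names and 4 were tested. Of these 4, 2 had a higher HFD mean, 2 a lower one, and 0 passed. miR-503, with a family-like seed, differed by 0.088 ± 0.096, miR-450a by 0.065 ± 0.083, miR-542-3p by -0.050 ± 0.094 and miR-542-5p by -0.024 ± 0.040 (SE, limma). The other 6, namely miR-15b*, miR-16*, miR-195*, miR-497*, miR-503* and miR-351, were detected on 0 arrays, so the opposite arms of the chromosome 2 and chromosome 10 hairpins could not be compared. Across arrays, miR-322* had a positive r with its neighbours on the X chromosome, but no pair passed. The r was 0.78 with miR-450a (permutation p = 0.00143, adjusted p = 0.0844), 0.70 with miR-542-3p (adjusted p = 0.166) and 0.66 with miR-503 (adjusted p = 0.202). In the same order rho was 0.71, 0.56 and 0.49 (permutation test, adjusted p = 0.203, 0.369 and 0.452). Without the 2 arrays farthest from the median of miR-322*, r was 0.63, 0.48 and 0.29. For miR-322 over all 13 arrays r was 0.18, -0.035 and 0.28 (permutation test, adjusted p = 0.822, 0.971 and 0.702). These neighbours were dim, with Control means of -3.85 for rno-miR-450a, -4.88 for rno-miR-542-3p and -5.21 for rno-miR-503. miR-503 stayed between -5.49 and -4.88, close to the lowest level assigned, -5.665. The part of low signal in these values was not tested.

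**Figure D5:**
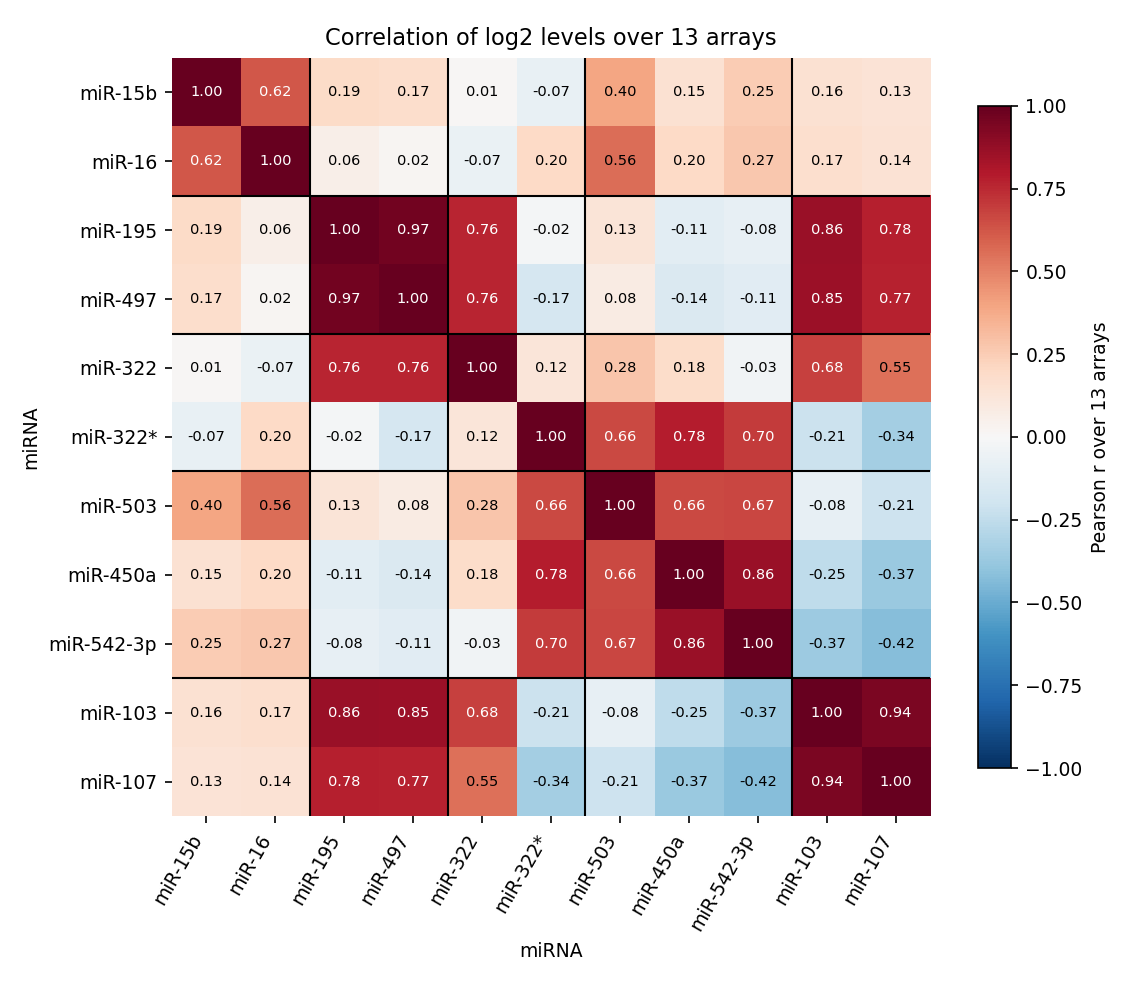
Pearson's r over the 13 arrays for each pair of the 6 members, 3 miRNAs of the X chromosome cluster and miR-103 with miR-107 (rows and columns; colour gives r from -1 to 1). The block of miR-195, miR-497, miR-322, miR-103 and miR-107 has r of 0.55 and above, and miR-322* has its highest values with miR-450a, miR-542-3p and miR-503.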

How the data were processed

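Total RNA of 13 fat samples was hybridised to 1-colour Agilent rat miRNA arrays. Per the file headers, the deposited scanner files hold background-subtracted processed intensity for each spot, and the deposited gene files hold a total gene signal intensity. The authors' deposited value table holds log2 values: of its 2569 values, 26 differed by more than 2e-04 from the log2 of the total gene signal, and its column medians ran from 6.95 to 7.77. Its scale is that of the total gene signal, uncentred. RMA and Partek are named in the submitters' processing notes without a role.

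Control and flagged spots were removed, and the mean of each probe's spots was scaled to the 75th percentile of its array, taken from the 260 probes that every array detected. Values were floored at log2 -5.665, and probes averaged per miRNA. Detection required a probe with a share of 0.5 or more of its spots well above background, and testing required detection on 6 or more arrays. HFD was compared with Control in limma 3.58.1 (R 4.3.3) with Benjamini-Hochberg adjustment over 176 miRNAs. Correlations were tested by permutation with 100000 resamples, two-sided, adjusted over 15400 pairs. Both steps were checked on simulated data. Their number, 13, limits what the arrays can resolve.

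The members and lists were chosen with earlier results of these data known. The genes named are the members, the listed relatives and markers, and the 3 miRNAs outside the members with the highest r to each member. Alternatives covered scaling, background correction (normexp on median spot signals, as mean signals were not used here), floor, probe choice, detection filter, slide, range of animal numbers, array weights and left-out arrays.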

Additional observations from a re-analysis of the deposited data

Results flagged for a closer look

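In each of the 12 sets of values of 1 member in 1 group, the highest and lowest arrays were compared with the rest of the group, and chance sets off this check in about 1 in 20 groups. 2 values stood out. miR-15b on Control 664 was -0.75, the highest of the 7 Control arrays, with a gap to the next array of 0.679 of the group's whole range against a limit of 0.568. Control 664 also had the highest mean level of the white blood cell miRNAs, -1.46, against at most -1.86 on the other arrays, and the part of white cells in this value was not tested. miR-322 on HFD 629 was -1.21, the lowest of the 6 HFD arrays, with a gap of 0.699 of the range against a limit of 0.625. On the same array miR-1 was at 2.74, the muscle list averaged 0.50 and the 75th percentile used for scaling, 2540, was the highest of all arrays. The parts of muscle RNA and of array brightness in this value were not tested.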

How the results depend on the processing

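No member and no other miRNA passed the comparison of HFD with Control under any of the 18 alternatives or with any of the 13 arrays left out, and miR-16 and miR-322 kept their sign in all of these. The difference turned for miR-15b within slide 2 (-0.11). For miR-195 it turned with the percentile over all probes (-0.0035), total gene signal (-0.027), the number range as a block (-0.030), array weights (-0.0078), within slide 1 (-0.20) and within the lower number range (-0.15). For miR-497 it turned with all probes (-0.0067), total gene signal (-0.032), the number range as a block (-0.020), within slide 1 (-0.18) and within the lower number range (-0.16). For miR-322* it turned with normexp (-0.011), total gene signal (-0.012), within slide 1 (-0.011) and within the upper number range (-0.029, a split chosen after seeing the data, as was the lower). Leaving out each array gave 0.043 to 0.16 for miR-15b, 0.025 to 0.078 for miR-16, -0.038 to 0.12 for miR-195, -0.040 to 0.13 for miR-497, 0.13 to 0.24 for miR-322 and -0.012 to 0.043 for miR-322*. The causes were not tested.

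The count of member pairs that passed, 1 as reported, was 6 with the percentile over all probes, 3 with quantile normalization, normexp, total gene signal or the deposited table, 2 on residuals after the group means, 0 without the 3 arrays of high miR-1, and 1 with any array left out. The share of all tested pairs that passed was 1.12% as reported and was not counted under these alternatives. A changed count is therefore not a result about the members alone. The r of miR-322 with miR-322*, 0.12 as reported, ran from -0.065 with total gene signal to 0.60 with the percentile over all probes. With arrays left out r ranged from 0.36 to 0.78 for miR-15b and miR-16, 0.94 to 0.98 for miR-195 and miR-497, 0.63 to 0.83 for miR-195 and miR-322, 0.62 to 0.83 for miR-497 and miR-322, and -0.17 to 0.28 for miR-322 and miR-322*. No paired analysis was possible because the groups share no replicate number. The low signal of miR-322* limits its values.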

Other observations

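The miRNAs outside the 6 members whose levels were most like each member's over the 13 arrays are given as a description, with Pearson's r as the measure, since they were picked by it. For miR-15b they were miR-142-3p (0.83), miR-142-5p (0.72) and miR-7a (0.71). Of these, miR-142 is known as a miRNA of blood cells, and miR-7a was on the marker list for brain. For miR-16 they were miR-362* (0.69), miR-125a-3p (0.66) and miR-532-5p (0.62). miR-195 was nearest to miR-181a (0.91), miR-130a (0.90) and miR-34a (0.88) and miR-497 to the same 3, at 0.93 for miR-181a, 0.87 for miR-130a and 0.87 for miR-34a. For miR-322 they were miR-203 (0.78), on the marker list for epithelium, miR-126 (0.78), on that for endothelium, and miR-181a (0.76). For miR-322* they were miR-450a, miR-542-3p and miR-503, its neighbours on the X chromosome. With members counted, miR-15b would stand before miR-532-5p for miR-16, miR-195 and miR-497 would each come first for the other, and both would stand before miR-181a for miR-322.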
